A study of Rattus norvegicus with 31 samples.

Results

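Inward rectifier potassium (Kir) channels are tetramers that pass potassium more readily into the cell than out of it, and so hold a neuron near its resting potential and set how much synaptic current is needed to make it fire. Their subunits fall into families with different controls: Kir2 channels are open at rest, Kir3 (GIRK) channels are opened by G protein beta-gamma subunits released by inhibitory receptors, Kir6 channels join sulfonylurea receptors to form the channels that ATP closes, and Kir4.1 and Kir5.1 are known mainly from glia and epithelia. All of them need the membrane lipid PIP2 in order to conduct.

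The genes described here are the 8 of 10 listed members (Kcnj2, Kcnj3, Kcnj4, Kcnj6, Kcnj8, Kcnj10, Kcnj11 and Kcnj16) for which at least 1 probe set carries that gene's symbol alone in the platform annotation, 11 probe sets in all, among 9769 genes and 12913 probe sets tested. Kcnj5 and Kcnj9, which encode the GIRK subunits Kir3.4 and Kir3.3, were not analysed here. The members were listed by gene family, and no measured value entered the rule. Motor neurons of the tail, labelled by a retrograde tracer, were cut by laser from cord of adult male Wistar rats without injury (Control, 4 animals) and from rats killed 2, 7, 21 or 60 days after the cord had been cut through at the second sacral segment (Spi-2, 6 animals; Spi-7, 5; Spi-21, 8; Spi-60, 8), with 1 array per animal. Control rats had no transection, and the labels give them no sham operation. The cut separates the neurons below it from the brain and leaves their axons to the tail muscles in place. The arrays came from 2 studies, Control, Spi-2 and Spi-7 from the present one and Spi-21 and Spi-60 from an earlier one, so that in any comparison of Spi-21 or Spi-60 with the other groups the time after injury and the study cannot be told apart.

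Values are log2 expression summaries of probe sets. A probe set's value depends on its own probes as well as on the transcript, so each is compared only with itself across animals, and the deposited values carry no detection calls. Array medians lay between 5.95 and 6.10. Of 11 motor neuron markers, 8 were measured, and the log2 of their summed linear values lay between 14.52 and 15.31 on all 31 arrays. Neurofilament heavy chain (Nefh), the highest of the 8, averaged 14.20 in Spi-60 and 14.18 in Control, and a linear sum weighs the highest markers most. Single markers did differ from Control at a limma adjusted p under 0.05. Slc5a7 was lower in Spi-2, Spi-21 and Spi-60 (-1.11 in Spi-21, adjusted p = 0.0095). Prph was higher on all 4 days (0.78 in Spi-21, adjusted p = 0.0044). The other 6 were not called on any day. In Spi-21 16.6% of all probe sets were called. The difference between the 3′ and 5′ control probe sets of Gapdh, which grows as RNA shortens, had medians of 1.88 in Control, 2.84 in Spi-2, 3.16 in Spi-7, 2.21 in Spi-21 and 3.53 in Spi-60, and all 8 Spi-60 arrays lay above every Control array. Within Spi-21 this difference was uneven, at 2.764 to 3.538 in replicates 1 to 4 and 1.129 to 1.662 in replicates 5 to 8. No Spi-21 array lay near the median of its group. As the samples are pools of cut cells, fewer cells of a type and less RNA per cell cannot be told apart in any result below.

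The 3 genes with a probe set that differed from Control on some day are Kcnj16, Kcnj2 and Kcnj6, and the stretch of DNA at the start of each is shown because Kcnj16 and Kcnj2 are next to each other among the protein-coding genes of chromosome 10 while their probe sets differed from Control in opposite directions. The windows run from 250 bases before to 50 bases after the start of the gene in RefSeq (build GRCr8), at chr10:96517074-96517373 (plus strand) for Kcnj16, chr10:96559975-96560274 (plus strand) for Kcnj2 and chr11:47778299-47778598 (minus strand) for Kcnj6, and read 5′ to 3′ along the gene. Capitals mark matches on either strand to any of 4 motifs. The GC box was searched as GGGCGG. The E-box that Zeb1 binds was searched as CAGGTG. The TATA box was searched as TATAAA. The CCAAT box was searched by the letters of its name.
Kcnj16: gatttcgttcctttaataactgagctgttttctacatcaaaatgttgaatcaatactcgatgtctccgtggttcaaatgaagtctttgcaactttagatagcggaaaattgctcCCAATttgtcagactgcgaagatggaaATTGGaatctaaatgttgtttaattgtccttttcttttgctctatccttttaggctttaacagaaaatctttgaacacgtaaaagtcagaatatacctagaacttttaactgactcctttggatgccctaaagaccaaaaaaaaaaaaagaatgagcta
Kcnj2: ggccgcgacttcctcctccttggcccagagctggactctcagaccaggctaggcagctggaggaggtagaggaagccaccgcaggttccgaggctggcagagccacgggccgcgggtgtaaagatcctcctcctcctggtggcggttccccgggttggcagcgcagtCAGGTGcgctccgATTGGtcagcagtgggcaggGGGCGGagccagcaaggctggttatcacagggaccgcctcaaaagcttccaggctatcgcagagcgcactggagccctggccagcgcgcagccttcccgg
Kcnj6: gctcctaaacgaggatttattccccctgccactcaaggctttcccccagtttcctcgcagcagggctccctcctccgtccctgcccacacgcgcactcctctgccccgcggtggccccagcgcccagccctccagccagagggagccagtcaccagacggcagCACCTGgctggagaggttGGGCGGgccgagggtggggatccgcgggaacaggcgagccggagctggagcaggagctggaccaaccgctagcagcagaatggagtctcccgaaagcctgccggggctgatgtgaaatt
The Kcnj16 window held 2 CCAAT matches and none of the other motifs. The Kcnj2 window held 1 GC box, 1 E-box and 1 CCAAT box. The Kcnj6 window held 1 GC box and 1 E-box. No matches overlapped. Of the 33469 rat windows of this length, 33.1% held a GC box, 18.8% the E-box, 14.2% a TATA box and 37.5% a CCAAT box, so each of these matches is common. The Kcnj16 window was poor in G and C, at 34%, and 3.49% of all windows had less. The other 7 listed genes with a window in the table lay between 56% (Kcnj9) and 70.3% (Kcnj10), against a median of 51.7% over all windows.

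Over the 5 groups, none of the 11 probe sets passed limma's moderated F-test at the false discovery rate (FDR) of 0.02 that the study used, where 16.2% of all probe sets passed. The study applied this threshold to a joint ranking from limma, Cyber-T and SAM, a different procedure, and by it called the Kcnj16 probe set differentially expressed. At an unadjusted p under 0.05 the count was 3, for Kcnj16 (FDR 0.0446), Kcnj2 (0.0691) and the Kcnj3 probe set 1369741_at (0.0858). In the contrasts of each day with Control, called at a Benjamini-Hochberg adjusted p under 0.05 from limma, 1 of 11 member probe sets was lower in Spi-2 (8.87% of all probe sets were called), none was called in Spi-7 (2.59% of all), 2 were lower in Spi-21 (16.6% of all), and 1 was lower and 1 higher in Spi-60 (17.1% of all). At an unadjusted p under 0.05 the count in Spi-7 was 1. These shares are near or below the shares over all probe sets. The median log2 change of the 11 probe sets was 0.03 in Spi-2, 0.01 in Spi-7, 0.13 in Spi-21 and 0.12 in Spi-60, beside medians over all probe sets between -0.003 and 0.0135.

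**Figure D1:**
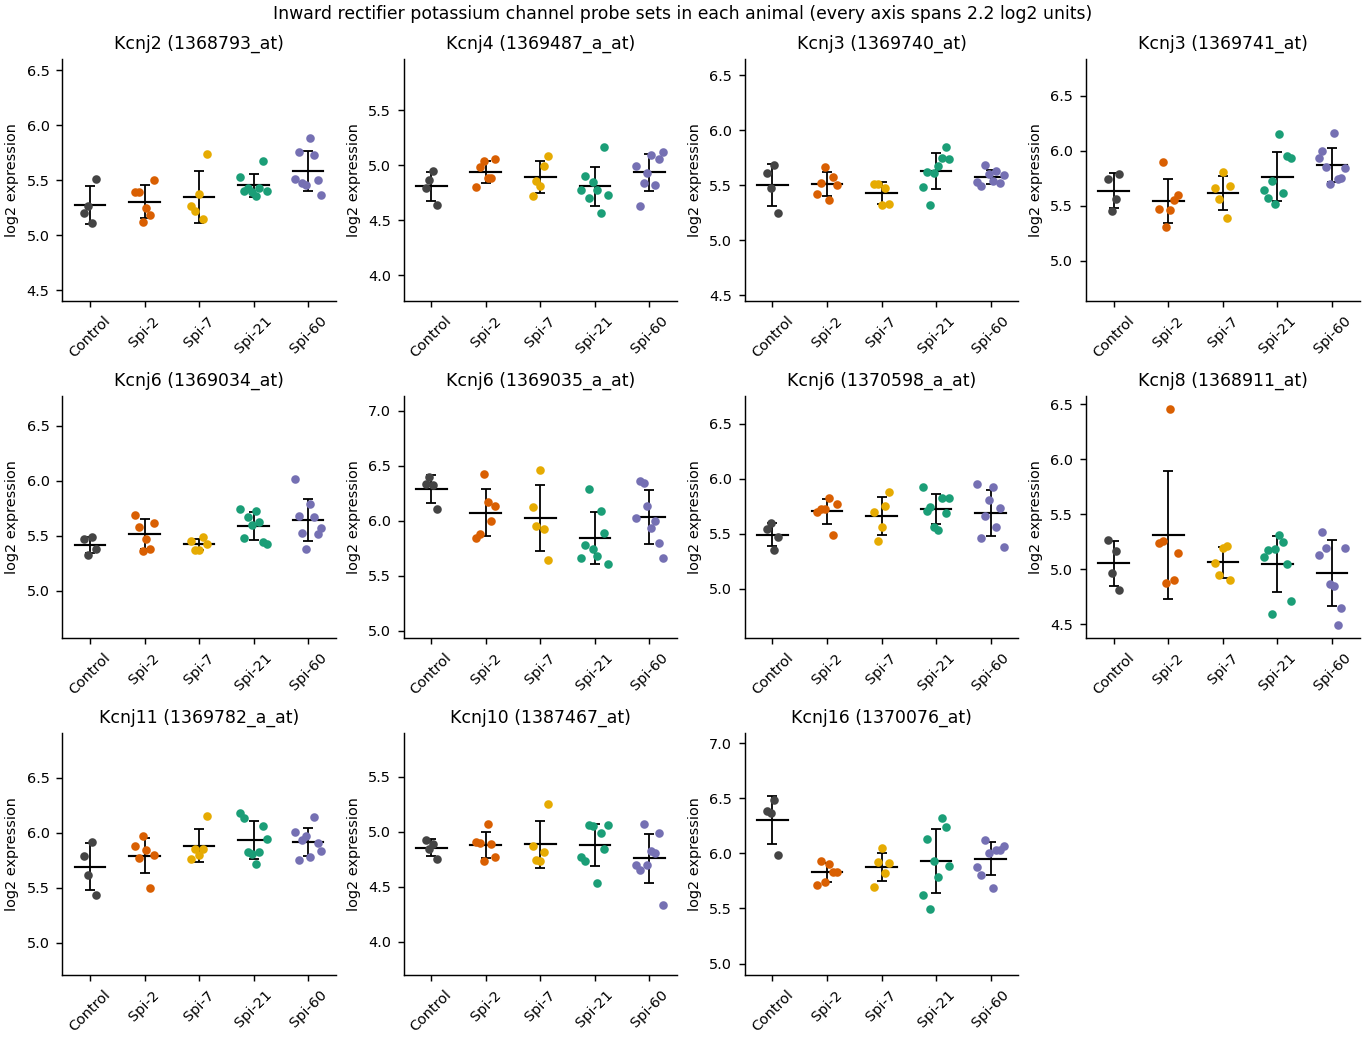
Log2 expression (vertical axis, a span of 2.2 units in every panel) of the 11 Kir probe sets by group (horizontal axis), with 1 point per animal, a horizontal line at the group mean and bars of 1 SD. Kcnj16 lies lower in the injured groups, 3 of its 4 Control animals lie above every injured animal, and 1 Spi-2 animal stands at 6.46 for Kcnj8.

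Kcnj16, which encodes Kir5.1, a subunit known to form channels with Kir4.1, was the member lower than Control on most days. Its probe set (1370076_at) read 5.72, 5.84 and 5.93 in Spi-2 (lowest, median and highest of 6 animals), against 5.99, 6.37, 6.38 and 6.49 in the 4 Control animals. The Spi-2 and Control animals did not overlap. In the 5 Spi-7 animals it read 5.70, 5.82, 5.91, 5.92 and 6.05, in Spi-21 5.50, 5.91 and 6.33, and in Spi-60 5.69, 6.02 and 6.12 (lowest, median and highest of 8). Of the 4 Control animals, 3 lay above all 27 injured animals, and the control at 5.99 lay among those of Spi-7, Spi-21 and Spi-60. The mean was 6.31 ± 0.22 in Control, 5.83 ± 0.08 in Spi-2, 5.88 ± 0.13 in Spi-7, 5.93 ± 0.29 in Spi-21 and 5.95 ± 0.15 in Spi-60 (SD over 4, 6, 5, 8 and 8 animals).

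Against Control, the log2 change of Kcnj16 was -0.48 ± 0.13 in Spi-2 (SE of the fit, 0.717-fold, limma adjusted p = 0.0177), -0.38 ± 0.12 in Spi-21 (adjusted p = 0.0332) and -0.35 ± 0.12 in Spi-60 (adjusted p = 0.0439). In Spi-7 it was -0.43 ± 0.13 and missed the threshold (adjusted p = 0.0848). With the days joined, it was -0.45 ± 0.12 early, the mean of Spi-2 and Spi-7 (adjusted p = 0.0139, 8.48% of all probe sets called), and -0.37 ± 0.11 late, the mean of Spi-21 and Spi-60 (adjusted p = 0.0195, 20.5% called), and in both it was the 1 member called. Within the present study alone, the F-test over Control, Spi-2 and Spi-7 also called Kcnj16 and no other member (adjusted p = 0.0218, 5.75% of all probe sets called). Among the 4 injured groups, each step in the order of the means was at most 0.05, and no neighbours were called as different (limma adjusted p between 0.838 and 0.999). The study placed this probe set on its own list of excitability genes, chosen on these same arrays, so that its presence there is not independent evidence of its direction.

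The calls of Kcnj16 changed with single controls. Without Control replicate 1, 2 or 3 the Spi-2 change was between -0.46 and -0.42 and no longer passed (adjusted p between 0.0534 and 0.0806), and without the low control, replicate 4, it was -0.58 (adjusted p = 0.00772). With the Gapdh 3′ to 5′ difference of each array as a covariate it was -0.41 (adjusted p = 0.0764) in Spi-2 and -0.22 (adjusted p = 0.495) in Spi-60. The Spi-21 and Spi-60 calls were lost without Control replicate 1, 2 or 3 as well (adjusted p between 0.0882 and 0.1253 in Spi-21 and between 0.1116 and 0.159 in Spi-60). The Spi-21 call was also lost without Spi-21 replicate 1 or 3 (adjusted p = 0.0637 and 0.067), and the Spi-60 call without Spi-60 replicate 1, 2 or 5 (adjusted p between 0.069 and 0.0841).

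Marker lists of other cells also differed between the injured groups and Control, some lower and some higher. Over all probe sets 8.87% were called in Spi-2, 2.59% in Spi-7, 16.6% in Spi-21 and 17.1% in Spi-60. The log2 of the summed values of 8 oligodendrocyte markers spanned, in injured animals, 11.84 to 12.84 (Spi-2), 11.83 to 12.91 (Spi-7), 11.51 to 12.44 (Spi-21) and 11.85 to 13.05 (Spi-60), against 12.33 to 13.30 in Control, with 1, 1, 4 and 2 of the 8 lower and none higher on the 4 days. Myelin basic protein (Mbp) was lower by the most, at -2.14 in Spi-2 (adjusted p = 6.1e-05). Of 8 astrocyte markers in Spi-2, Aldoc was lower (-0.91) and Gfap, the filament protein of reactive astrocytes, higher (2.45). In Spi-7 1 of the 8 was lower (Aldoc, -0.82, adjusted p = 0.0133) and none higher. In Spi-21 1 was lower (Slc1a3, -0.94, adjusted p = 0.0338) and 1 higher (Gfap, 1.34, adjusted p = 0.02). In Spi-60 none was lower and 1 was higher. The sum of that list overlapped between all groups, at 12.997 to 13.365 (Spi-2), 12.665 to 13.489 (Spi-7), 12.926 to 13.652 (Spi-21) and 13.002 to 13.951 (Spi-60), against 13.004 to 13.733 in Control. Of 9 microglia and macrophage markers, 4, 1, 2 and 3 were higher and none lower on the 4 days, with sums of 9.75 to 10.921 (Spi-2), 9.234 to 10.577 (Spi-7), 8.743 to 11 (Spi-21) and 9.129 to 11.062 (Spi-60), against 8.787 to 9.045 in Control. Of 7 interneuron markers, 2 were lower in Spi-2, none was called in Spi-7, and 3 were lower in Spi-21 and in Spi-60. Their sums were 8.88 to 10.18 in Spi-2 and 8.613 to 10.191 in Spi-7. In Spi-21 they were 8.421 to 9.445 and in Spi-60 8.574 to 9.716, against 9.15 to 11.27 in Control. Control replicates 1, 2 and 3 (10.654 to 11.268) lay above every injured animal in this sum. The control with the lowest Kcnj16 value, replicate 4, also had the lowest sum of the 4 controls in every list but that of motor neurons. These sums were 12.33 for oligodendrocytes (the others 13.03 to 13.30), 13.004 for astrocytes (13.49 to 13.73) and 9.15 for interneurons (10.65 to 11.27). They were 8.787 for microglia and macrophages (8.873 to 9.045), 8.075 for pericytes and smooth muscle (8.157 to 8.368) and 6.633 for endothelium (6.817 to 7.006). Its motor neuron sum was the highest (15.238, the others 14.515 to 14.998). No marker is listed at 0, and the part of these cells in the Kcnj16 values was not tested.

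Kcnj10, which encodes Kir4.1, the main potassium channel of astrocytes and the partner of Kir5.1, was not called against Control on any day. Its probe set (1387467_at) read 4.73, 4.89 and 5.07 in Spi-2 (lowest, median and highest), against 4.75, 4.84, 4.89 and 4.93 in Control. The animals of the other groups covered 4.74 to 5.25 (Spi-7), 4.53 to 5.06 (Spi-21) and 4.34 to 5.07 (Spi-60). The groups overlapped throughout. Over the 31 arrays this probe set averaged 4.85, and 6.1% of probe sets had a lower mean. A missing call at so low a value does not show that the transcript was unchanged. The changes lay between -0.09 ± 0.12 in Spi-60 and 0.03 ± 0.13 in Spi-7 (adjusted p between 0.632 and 0.947), and the 95% interval of the Spi-2 change ran from -0.23 to 0.28.

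**Figure D2:**
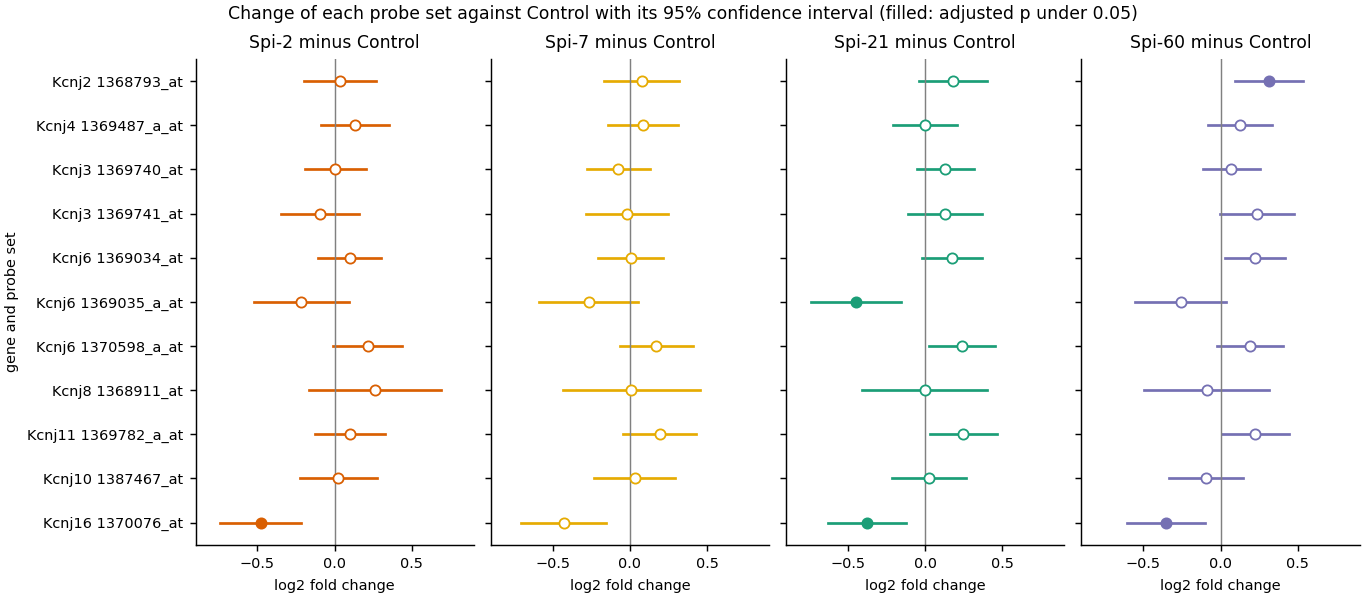
Log2 change of each Kir probe set against Control (horizontal axis) at 2, 7, 21 and 60 days, with the 95% confidence interval of the limma fit as a line and a filled point where the adjusted p over all probe sets was under 0.05. Filled points are Kcnj16 in Spi-2, Spi-21 and Spi-60, Kcnj6 1369035_a_at in Spi-21 and Kcnj2 in Spi-60.

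Kcnj2 encodes Kir2.1, a channel open at rest and strongly rectifying. It was the 1 member called higher, and only in Spi-60. Its probe set (1368793_at) read 5.37, 5.51 and 5.89 in Spi-60 (lowest, median and highest of 8), against 5.12, 5.20, 5.27 and 5.51 in the 4 Control animals. All 8 Spi-60 animals lay above 3 of the controls and 4 of them lay above every control. The mean of this set over the 31 arrays was 5.42, and 28.4% of probe sets had a lower one. The group means were 5.28 ± 0.17 in Control, 5.31 ± 0.15 in Spi-2, 5.35 ± 0.23 in Spi-7, 5.45 ± 0.10 in Spi-21 and 5.59 ± 0.18 in Spi-60. No neighbours in this order were called as different (limma adjusted p between 0.568 and 0.999). The Spi-60 change was 0.31 ± 0.11 (1.24-fold, adjusted p = 0.0431), and the Spi-21 change of 0.18 ± 0.11 was not called (adjusted p = 0.257). The Spi-60 call was lost with the Gapdh covariate (0.34, adjusted p = 0.193), in a fit of Spi-60 and Control arrays alone (adjusted p = 0.059), with a replicate block (0.27, adjusted p = 0.107) and without Control replicate 1, 2 or 3 (adjusted p between 0.0939 and 0.156). It was lost too without Spi-60 replicate 1, 2, 5 or 6 (adjusted p between 0.0511 and 0.0861) and with a further quantile normalization (0.30, adjusted p = 0.0577), in all in 11 of 39 alternatives. Spi-60 also lies in the earlier study. Within that study Spi-60 minus Spi-21 was 0.13 ± 0.09 (adjusted p = 0.629), no member was called, none had an unadjusted p under 0.05, and 0.00774% of all probe sets were called.

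Kcnj4, which encodes the related resting channel Kir2.3, showed no called change. Its probe set (1369487_a_at) ranged from 4.56 to 5.17 over all animals, with means of 4.81 in Control, 4.94 in Spi-2, 4.89 in Spi-7, 4.81 in Spi-21 and 4.94 in Spi-60. The changes lay between -0.003 and 0.13 (adjusted p between 0.433 and 0.988). This set too read low, with a mean of 4.88 over the 31 arrays and 7% of probe sets below it. Other Kir genes outside the list, Kcnj12 (Kir2.2), Kcnj15 (Kir4.2) and Kcnj1 (Kir1.1, the channel of the kidney tubule), were measured too. None of the 3 was called on any day, and Kcnj12 averaged 6.16 in Spi-60 and 6.06 in Control.

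Kcnj6 encodes Kir3.2, the GIRK subunit of most neurons, and its 3 probe sets did not move together. The set 1369035_a_at read 5.61, 5.76 and 6.29 in Spi-21 (lowest, median and highest of 8), against 6.11, 6.33, 6.34 and 6.40 in the 4 Control animals. Of the 8 Spi-21 animals 7 lay below every control. The change was -0.45 ± 0.14 in Spi-21 (0.733-fold, adjusted p = 0.0305), and in Spi-2, Spi-7 and Spi-60 the values were -0.22 ± 0.15, -0.27 ± 0.16 and -0.26 ± 0.14, none of which passed (adjusted p between 0.224 and 0.431). The call in Spi-21 was lost without Control replicate 1, 2 or 3 (adjusted p between 0.0743 and 0.096), without Spi-21 replicate 1 and with a further quantile normalization (-0.41, adjusted p = 0.0512).

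The other sets of Kcnj6 had estimates of the opposite sign. The set 1369034_at averaged 5.59 ± 0.13 in Spi-21 and 5.42 ± 0.08 in Control, a difference of 0.17 ± 0.10 (adjusted p = 0.214). The set 1370598_a_at averaged 5.73 ± 0.13 in Spi-21 and 5.49 ± 0.11 in Control, a difference of 0.24 ± 0.10 (adjusted p = 0.117). Neither was called on any day. Since all 3 sit on the same array, their differences within an array are free of any shift common to the array. The set 1369035_a_at minus 1369034_at was 0.25 ± 0.25 in Spi-21 (n = 8) and 0.87 ± 0.14 in Control (SD, n = 4). Minus 1370598_a_at it was 0.11 ± 0.26 in Spi-21 and 0.80 ± 0.14 in Control. In both comparisons no Spi-21 animal reached the lowest control, at 0.62 (highest Spi-21) against 0.72 (lowest Control) and 0.55 against 0.63.

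Both differences gave p = 0.00202 in a two-sided exact permutation test, the smallest that 8 against 4 animals allow, and 0.0162 after Benjamini-Hochberg adjustment over the 16 exact permutation tests run on such differences. In Spi-60 the exact p was 0.0182 and 0.0283 (0.0727 and 0.0905 adjusted). In Spi-2, inside the present study, the values were 0.56 ± 0.32 and 0.37 ± 0.21 (SD, n = 6), with exact p of 0.0952 and 0.0143 (0.218 and 0.0727 adjusted). The third pairing, 1370598_a_at minus 1369034_at, gave 0.14 ± 0.19 in Spi-21 and 0.07 ± 0.17 in Control (exact permutation p = 0.566). These tests were chosen after the values of the probe sets had been seen, and with a further quantile normalization both Spi-21 results lost their call (adjusted p = 0.0647). The arrays themselves differed in spread, with an interquartile range of 1.74 to 1.89 in Spi-21, against 1.95 to 2.03 in Control. In Affymetrix names the ending _a_at marks a set whose probes match more than 1 transcript of a gene. Which transcripts of Kcnj6 each set reads is not given in the sources used here, so an unequal change of the sets is not assigned to isoforms.

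**Figure D3:**
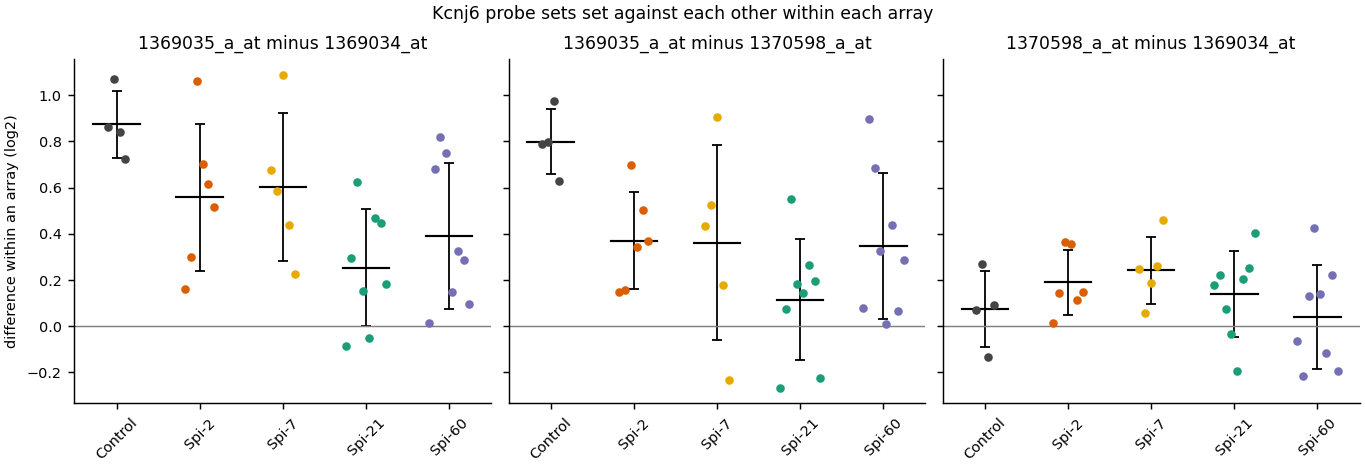
Differences between the Kcnj6 probe sets on the same array (vertical axis, log2) by group (horizontal axis), with 1 point per animal, lines at group means and bars of 1 SD. In the left and middle panels all 8 Spi-21 animals lie below the 4 Control animals, and the right panel, with the third pairing, shows overlapping groups.

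Kcnj3 encodes Kir3.1, which pairs with Kir3.2 in neuronal GIRK channels. The set 1369741_at read 5.31, 5.51 and 5.90 in Spi-2 and 5.52, 5.69 and 6.16 in Spi-21 (lowest, median and highest), and 5.70, 5.85 and 6.16 in Spi-60, against 5.45, 5.56, 5.75 and 5.79 in Control. No day was called against Control, and the Spi-60 value was 0.23 ± 0.12 (adjusted p = 0.174). Between injured groups, Spi-60 minus Spi-2 was 0.33 ± 0.10 (adjusted p = 0.0392), the 1 pair among the 10 pairs of groups in which a member was called without Control being part of it, where 11.0% of all probe sets were called. This pair crosses the studies, and the call was lost without Spi-2 replicate 1, 3, 4, 5 or 6, without Spi-60 replicate 1, 2 or 5, with the Gapdh covariate and with a replicate block. The other Kcnj3 set, 1369740_at, averaged 5.57 ± 0.06 in Spi-60 and 5.51 ± 0.11 in Spi-2 and was not called (adjusted p = 0.642). The difference between the Kcnj3 sets within an array was not called against Control in any group (exact permutation p between 0.265 and 0.986).

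GIRK channels are opened by receptors through G proteins, and genes of both were measured. Of 24 receptors known to open GIRK channels, 2, 2, 3 and 3 were lower than Control in Spi-2, Spi-7, Spi-21 and Spi-60, and none was called higher on any of the 4 days. Over all probe sets 8.87%, 2.59%, 16.6% and 17.1% were called on these days. Except in Spi-7, the receptor counts were below these shares. Cnr1, the CB1 cannabinoid receptor, was lower on all 4 days, at -2.15 ± 0.25 in Spi-21 (adjusted p = 1.32e-05), with means of 5.03 in Spi-21 and 7.18 in Control. Gabbr2, the subunit of the GABA-B receptor that couples to the G protein, was lower by 0.86 ± 0.16 on the log2 scale in Spi-21 (adjusted p = 0.000839) and also on the other days. Sstr1, a somatostatin receptor, averaged 5.29 in Spi-21 and 6.02 in Control (adjusted p = 0.00522) and was called again in Spi-60. Drd4, the D4 dopamine receptor, was at 0.33 ± 0.13 in Spi-21 and not called (adjusted p = 0.074), and with the late days joined it was called higher (0.32 ± 0.12, adjusted p = 0.0482). The median change over the 24 receptors was 0.08 in Spi-21, beside 0.0135 over all probe sets. Cnr1 and Gabbr2 are also genes of interneurons, and 3 of 7 interneuron markers were lower in Spi-21. Their part was not tested.

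Of 10 G protein beta and gamma subunits, the direct openers of GIRK channels, 1 was higher in Spi-2, none was called in Spi-7, 3 were higher and 1 lower in Spi-21, and 3 were higher in Spi-60. The shares called over all probe sets were 8.87%, 2.59%, 16.6% and 17.1% on these days. Gng3, a neuronal gamma subunit, was at 0.60 ± 0.15 in Spi-21 and 0.70 ± 0.15 in Spi-60 (adjusted p = 0.00941 and 0.00253). Gnb2 was at 0.70 ± 0.18 in Spi-60 (adjusted p = 0.00646) and Gnb3 at 0.43 ± 0.09 (adjusted p = 0.0021). Gng5 was called only in Spi-2, at 0.90 (adjusted p = 0.00508). The subunit lower in Spi-21 was Gng11 (-0.80 ± 0.24, adjusted p = 0.0224), named after its value was seen. Of 3 inhibitory alpha subunits, Gnai2 was higher in Spi-21 (0.65 ± 0.20, adjusted p = 0.0231) and Spi-60. Of 5 RGS proteins, which speed the closing of GIRK channels by helping the G protein to switch off, Rgs4 was lower on all 4 days (-1.46 ± 0.29 in Spi-21, adjusted p = 0.00131) and Rgs3 was higher in Spi-7, Spi-21 and Spi-60 (1.01 ± 0.21 in Spi-21, adjusted p = 0.002).

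Kir6 subunits form the channels that couple potassium flow to the ATP level of the cell. Kcnj11 (Kir6.2, 1369782_a_at) had positive estimates on all 4 days and no call. It read 5.71, 5.88 and 6.18 in Spi-21 and 5.76, 5.92 and 6.14 in Spi-60 (lowest, median and highest), against 5.43, 5.62, 5.79 and 5.92 in Control. In both late groups 4 of 8 animals lay above every control and the rest overlapped. The change was 0.10 ± 0.11 in Spi-2, 0.19 ± 0.12 in Spi-7, 0.25 ± 0.11 in Spi-21 and 0.23 ± 0.11 in Spi-60 (adjusted p between 0.106 and 0.658), and late 0.24 ± 0.10 (adjusted p = 0.0809). Abcc8, the sulfonylurea receptor SUR1 that Kir6.2 is known to pair with and its neighbour on chromosome 1, averaged 5.09 in Spi-2, 5.21 in Spi-21 and 5.46 in Control and was not called (adjusted p between 0.176 and 0.693). The positive estimates of the channel subunit thus stood beside negative ones of the receptor, with neither passing.

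Kcnj8 (Kir6.1, 1368911_at) is the subunit known from pericytes and vascular smooth muscle. It read 4.87, 4.90, 5.15, 5.24, 5.26 and 6.46 in the 6 Spi-2 animals, against 4.81, 4.97, 5.16 and 5.27 in Control. A single animal, Spi-2 replicate 4, stood apart and was also the highest of all 31. The other injured groups covered 4.90 to 5.21 (Spi-7), 4.59 to 5.31 (Spi-21) and 4.49 to 5.34 (Spi-60). The Spi-2 change was 0.26 ± 0.21 with this animal and 0.03 ± 0.16 without it (adjusted p = 0.50 and 0.941). No other day was called (adjusted p between 0.809 and 0.991). The mean of this set over the 31 arrays was low, at 5.08, and 13.6% of probe sets had a lower one.

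Several marker lists had their highest sum among the Spi-2 animals in that animal. The endothelial marker Vwf, von Willebrand factor, read 9.77 in it and 6.37 to 6.61 in the other 5 Spi-2 animals. Tagln, of smooth muscle, read 6.95 against 5.25 to 5.52 in the others, and Anpep, of pericytes, 7.11 against 5.30 to 5.72. The log2 sum of 6 pericyte and smooth muscle markers was 8.89 in it and 8.05 to 8.24 in the other Spi-2 animals, and that of the 2 measured endothelial markers 9.84 and 6.91 to 7.17. Its sums for oligodendrocytes (12.84, the others 11.84 to 12.56) and for microglia and macrophages (10.921, the others 9.75 to 10.862) were also the highest of its group. Of the 6 pericyte markers 4 were highest in this animal among the Spi-2 animals, and of the 2 endothelial markers 1. Pdgfrb, a receptor that defines pericytes, read 5.14 beside 5.13 to 5.67, and Flt1, of endothelium, 5.37 beside 5.18 to 5.54. Abcc9 (SUR2), the neighbour of Kcnj8 on chromosome 4 and its usual partner, read 4.95, just above the 4.66 to 4.93 of the others. The Control sums were 8.08 to 8.37 for pericytes and 6.63 to 7.01 for endothelium. None of the 6 pericyte or 2 endothelial markers was called on any day. Kcnj16 in this animal was 5.91, inside the Spi-2 range, and the part of vessels or of these other cells in the Kcnj8 values was not tested.

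**Figure D4:**
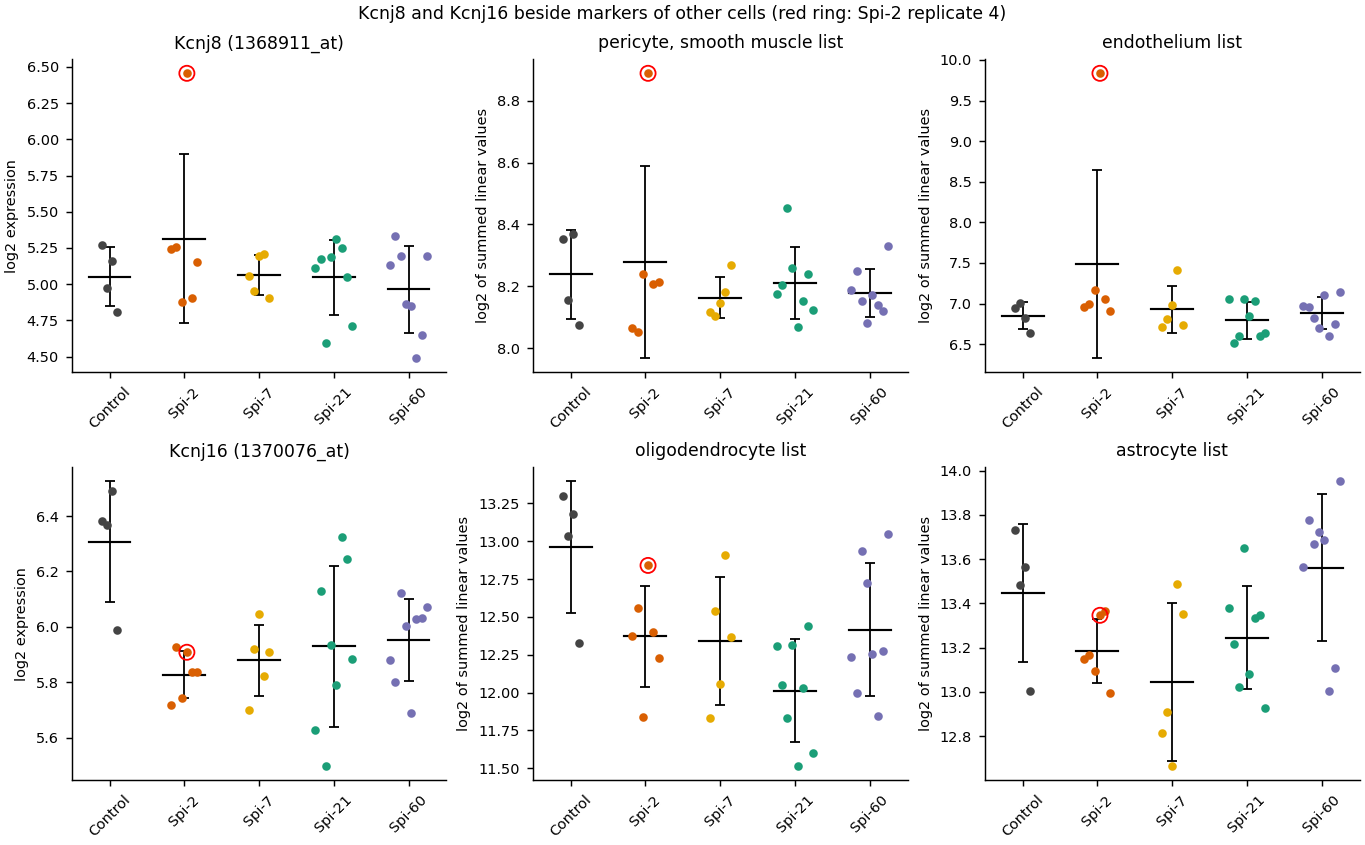
Kcnj8 and Kcnj16 (log2 expression, left panels) beside marker lists of vessels and glia (log2 of the summed linear values, other panels) by group, with 1 point per animal, lines at group means, bars of 1 SD and a red ring around Spi-2 replicate 4. The ringed animal is the highest of all in the 3 upper panels, and 1 Control animal is low for Kcnj16, oligodendrocytes and astrocytes alike.

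Kir channels also depend on the supply of PIP2 and on proteins that hold them in the membrane. Of 10 enzymes of PIP2, 1 was lower in Spi-2 and Spi-7, 1 was lower and 3 were higher in Spi-21, and 1 was lower and 1 higher in Spi-60. Over all probe sets 8.87% were called in Spi-2, 2.59% in Spi-7, 16.6% in Spi-21 and 17.1% in Spi-60. Plcb4, a phospholipase that breaks PIP2 down, was lower on all 4 days (-1.03 ± 0.18 in Spi-21, adjusted p = 0.000435). Pi4kb, a kinase on the way to PIP2, was higher in Spi-21 and Spi-60 (0.73 ± 0.17 in Spi-60, adjusted p = 0.00485), and Pip4k2b and Plcb3 were higher in Spi-21 alone. Of 14 anchoring and traffic genes, 3 were higher in Spi-2, 1 in Spi-7 and 2 in Spi-60, with none lower on these days. In Spi-21 2 were lower and 2 higher. Flna, filamin A, was higher on all 4 days (0.75 ± 0.15 in Spi-21, adjusted p = 0.00184). Dlg2, the scaffold PSD-93, was lower in Spi-21 (-0.64 ± 0.18, adjusted p = 0.0173), as was Dag1, dystroglycan (-0.45 ± 0.13, adjusted p = 0.0173). Actn2, alpha-actinin 2, was higher in Spi-2, Spi-21 and Spi-60.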

How the data were processed

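Values were the authors' deposited log2 expression summaries from Affymetrix rat genome arrays, 1 array per animal. According to the methods, RNA of laser-cut motor neurons went through 2 rounds of amplification, probe sets outside Ensembl's annotation were dropped, background was compensated, probes were quantile normalized and summarised by RMA (named in the submitters' processing notes too), and the summaries were compensated again. Of 12919 probe sets, 6 controls were left out. No raw array was used. Gene symbols came from the platform annotation, where 11880 probe sets carry 1 symbol, 320 several and 713 none.

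The model, run in limma 3.58.1 under R 4.3.3, gave each group a mean over the 31 arrays together. The F-test was called at an FDR of 0.02 and two-sided contrasts at an adjusted p under 0.05, with Benjamini-Hochberg adjustment over all 12913 probe sets. Changes are given with ± their standard error and means with ± the SD over animals. The number of arrays limits the precision. Alternatives were 8 other settings and leaving out each animal. Scripts were tested on simulated data. Partner and marker lists used 1 probe set per gene, the highest mean, and up to 4 genes per partner list, those with the smallest F-test p, were named; genes of like pattern were to be named only for members called in the F-test, and there were none. The members and lists were chosen with earlier results of these data known. Promoter windows came from a table of RefSeq sequence (GRCr8) that held a window for 8 of the 10 listed genes.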

Additional observations from a re-analysis of the deposited data

Results flagged for a closer look

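In 55 sets of values, 1 for each probe set and group, 3 had a highest animal far from the rest of its group, and chance gives about 1 in 20. Kcnj8 read 6.456 in Spi-2 replicate 4, where the next animal read 5.256; the vascular markers of this animal are given with Kcnj8 above. Kcnj10 read 5.253 in Spi-7 replicate 5, with the next at 4.872, and Kcnj11 read 6.148 in the same animal, with the next at 5.856. The array of Spi-7 replicate 5 had the narrowest interquartile range of its group (1.754, the others 1.977 to 2.008), the lowest sum of motor neuron markers (14.55, the others 14.94 to 15.31) and the lowest sum of interneuron markers (8.61, the others 8.82 to 10.19), its sum of microglia and macrophage markers was also the lowest (9.234, the others 9.448 to 10.577) and that of pericyte and smooth muscle markers the highest (8.27, the others 8.104 to 8.18), and its astrocyte sum (13.35) lay inside the range of the others, 12.67 to 13.49. The part of any of these in the Kcnj10 and Kcnj11 values was not tested.

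The change of Kcnj3 (1369741_at) against Control differed between Spi-60 and Spi-2, by 0.325 ± 0.10 (limma adjusted p = 0.0392). The call was lost in 10 of 39 alternatives, all added after seeing the data, in which the adjusted p reached 0.0904.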

How the results depend on the processing

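No call on a named probe set changed direction in any alternative. With leaving out 1 animal, the number of member probe sets called ranged from 0 to 1 in Spi-2, Spi-7, early, the F-test over 5 groups and the F-test within the present study, from 0 to 2 in Spi-21, from 0 to 3 in Spi-60 and late, and was 0 throughout for Spi-60 minus Spi-21. The Kcnj16 calls in Spi-2, Spi-21, Spi-60, early, late and within the present study were lost without Control replicate 1, 2 or 3, that in Spi-21 also without Spi-21 replicate 1 or 3, and that in Spi-60 also without Spi-60 replicate 1, 2 or 5. The F-test called 1 member without Spi-7 replicate 5, and Spi-7 had 1 call without Control replicate 4. Late, the call of Kcnj11 without Control replicate 3 (adjusted p = 0.0487) replaced that of Kcnj16.

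With the Gapdh 3′ covariate the counts were 0 in Spi-2, Spi-60, early, late and the present study's F-test. Further quantile normalization gave 0 in Spi-21 and 0 in Spi-60, and centring arrays on their median gave 1 in Spi-60. Array weights gave 1 in Spi-7, 3 late and 2 in the F-test. Without low probe sets, which dropped Kcnj4, Kcnj8 and Kcnj10, late had 2. Fits of the compared groups alone gave 1 in Spi-21 and 1 in Spi-60. In these alternatives the cause was not tested.

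The replicate numbers in the titles were not used to pair the animals in the main fit. Over 51 pairs of arrays with the same number the median correlation of deviations was -0.041, and 11 pairs were over 0.1. The pairs ranged from -0.333 to 0.355, and their median cannot show that no numbers are linked. With a replicate block, 1 member was called in Spi-60 (Kcnj16) and 0 in the F-test within the present study, and the Spi-2 change of Kcnj16 was -0.51.

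For the 7 calls against Control, between 28 and 35 of 39 alternatives kept the call. Of these alternatives 31 left out 1 animal, and for a single day most such animals were in neither compared group. Every call lost by leaving out an animal was lost with an animal of a compared group. The share kept therefore says little about how a call depends on the animals compared. Other probe sets for the list genes (smallest F-test p) raised the GIRK receptors called lower in Spi-21 to 4. Each within-array result for Kcnj6 lost its call in 1 of 13 alternatives, which were added after seeing the data.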
